A study of Bos taurus with 16 samples.

Results

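The mature bovine oocyte was compared with the 2-cell embryo, the first product of cleavage, in single cells and embryos that had matured and developed in vivo. The series holds 16 samples of Bos taurus, 2 at each of 8 stages: MII oocyte, 2C, 4C, 8C, 16C, early morula (EM), compact morula (CM) and blastocyst (BL). The members are the 2 samples labelled MII oocyte and the 2 labelled 2C, 4 of 16, chosen by their stage labels alone. No sample was treated, and the labels give neither breed, donor nor embryo sex. The samples of a stage are single oocytes or embryos, and whether they share a donor is not known. The p-values measure the spread between amplified libraries of the same stage, pooled over all 8 stages, and not that of these 4 samples alone. RNA of each oocyte or embryo was amplified in consecutive rounds before SOLiD sequencing. The amplification starts from poly(A) tails, and the values therefore report polyadenylated RNA relative to the other RNA of the same sample. RNA per embryo was not measured, so a loss shared by most transcripts cannot be seen.

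An oocyte arrested at the second meiotic metaphase carries messages that were made during growth and stored with short tails. After fertilization these messages are polyadenylated and translated, or deadenylated by the CCR4-NOT complex and degraded, while the nucleus stays largely silent. In cattle the major activation of the embryonic genome comes later, around the 8-cell stage, after a minor wave of early transcription.

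Levels are given as normalised read counts, the deposited values, which are reads divided by a size factor of the sample. They are not divided by gene length, so a gene is compared between samples and not with other genes. Reads were recovered for 14071 loci in the 4 samples, of 18318 with reads in the series and 27393 listed. MII replicates 1 and 2 held 2256671 and 2281896 reads, and 2C replicates 1 and 2 held 1502413 and 3379426 reads. A level resting on 3 reads, taken here as the floor, was 2.77 and 3.19 in the MII samples and 2.37 and 1.09 in the 2C samples. The floor covers counting error only, because amplified molecules were not told apart.

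The oocyte label was checked with genes that mark oocytes. ZP2, a protein of the zona pellucida, stood at 391 and 569 in the MII samples and at 482 and 416 in the 2C samples. GDF9, an oocyte growth factor, stood at 73.8 and 123 in MII and at 71.2 and 99.99 in 2C. H1FOO, the linker histone of the oocyte, stood at 14759 and 23580 in MII and at 6552 and 4241 in 2C. BMP15, the partner of GDF9, was listed at 0 in all 4 samples. The oocyte transcription factors FIGLA and NOBOX were low, at 2.77 and 0 and at 4.62 and 0 in MII.

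Markers of other cells were looked at as lists. Of 23 cumulus and granulosa cell markers 15 had reads, and their summed level was 2113 and 1400 in MII and 1281 and 2145 in 2C. STAR, a cholesterol carrier of steroid-making cells, gave most of this sum with 1933 and 1075 in MII and 1147 and 1723 in 2C. HAS2, the hyaluronan synthase of the cumulus, stood at 143 and 245 in MII and at 98.1 and 367 in 2C. CYP19A1, the aromatase, stood at 7.38 and 24.5 in MII and at 7.12 and 26.3 in 2C, and the groups overlapped for STAR, HAS2 and CYP19A1. FSHR, the receptor of follicle-stimulating hormone, stood at 11.1 and 22.3 in MII and at 3.17 and 1.82 in 2C, with both embryos below both oocytes. GREM1 and CD44 had no read in MII and under 3 in level in 2C. Of 12 oviduct markers 8 had reads, with sums of 101 and 117 in MII and 196 and 48.9 in 2C. OVGP1, the glycoprotein secreted by oviduct epithelium, stood at 0.923 and 1.06 in MII, at 89.4 in 2C replicate 1 and at 0 in 2C replicate 2. The epithelial genes CFTR and EPCAM went the other way, with 36.9 and 38.3 and with 26.8 and 57.4 in MII, and 24.5 and 10.2 and 19.8 and 2.19 in 2C. Of 11 blood cell markers 3 had any read, and of 24 sperm and spermatid markers 5 did, with sums of 26.8 and 31.9 in MII and 29.3 and 54.0 in 2C. The part of other cells in the results was not tested.

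The 2C embryos differed from each other. Across the 9670 loci kept for testing, the median absolute log2 difference between the samples of a stage was 0.85 in 2C and 0.73 in MII, within a range from 0.50 in 4C to 1.10 in 8C. More than 4-fold differences between replicates were found at 1454 loci (15%) in 2C and at 1303 loci (13.5%) in MII. As a description across loci, which are not independent replicates, Pearson's r of log2 values was 0.84 between the 2C embryos. 2C replicate 2 correlated with the 4C samples at 0.92 and 0.92 and with the MII samples at 0.83 and 0.78. 2C replicate 1 correlated with the 4C samples at 0.84 and 0.84 and with the MII samples at 0.85 and 0.87. Replicate 2 therefore lay nearest to 4C, and replicate 1 about as near to MII as to 4C.

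**Figure D1:**
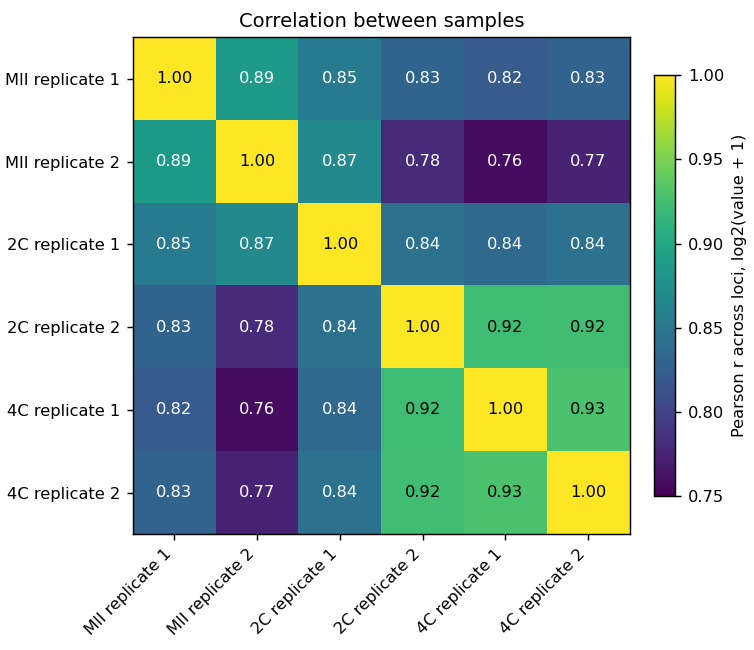
Pearson's r across 9670 loci between the log2 values of each pair of MII, 2C and 4C samples, with colour and printed number giving r. 2C replicate 2 stands at 0.92 with both 4C samples, and 2C replicate 1 stands between 0.84 and 0.87 with all of the others.

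One unannotated locus, CUFF.56339.1, took 27.0% of all reads of 2C replicate 2. Its level was 70434 and 1908 in the MII samples, 2584 in 2C replicate 1 and 332913 in replicate 2. It was also high in 4C, at 270672 and 98392. The MII and 2C samples overlapped at this locus and the log2 difference of 1.34 ± 1.76 (SE) did not pass the test (adjusted p = 0.794, limma).

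More loci carried reads in the embryos than in the oocytes. MII samples had reads at 9736 and 8893 loci, and 2C samples at 10979 and 12176. At a common depth of 600000 reads the expected numbers were 7877 and 7101 in MII against 9519 and 9860 in 2C, so that the groups did not overlap, and the 4C samples stood at 9939 and 9870. Reads in both 2C samples and in no MII sample were found at 1070 loci, and the opposite at 97. With at least 10 reads in each sample of the stage that had them, 56 loci were seen in 2C and not in MII, and 1 unannotated locus, CUFF.31624.2, with 18 and 12 reads in MII, was seen in MII and not in 2C. The remaining loci had fewer reads in at least 1 sample, some of them under the floor.

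Each locus was tested by limma over all 16 samples with stage as the factor, on log2(value + 1), with Benjamini-Hochberg adjustment over 9670 loci. In 2C, 116 loci (1.2%) were higher and 21 (0.217%) were lower, 137 (1.42%) in all. At an unadjusted p under 0.05, 1115 were higher (11.5%) and 472 lower (4.88%). Both 2C samples lay above both MII samples at 2413 loci (25%) and below them at 1588 (16.4%). An exact permutation of 2 samples against 2 cannot give a p under 0.33, so single genes were judged by the fit over all loci. The median log2 difference of all loci was 0.15. When reads were scaled to total reads, this median was 0.78, with 541 loci higher and 10 lower, and the split of calls by direction therefore rests on the scaling.

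Leaving out single libraries moved some of these counts by over 1.5 times. Without MII replicate 1 neither count moved that far. Without MII replicate 2, 14 loci were higher and 2 lower, and without 2C replicate 2 the counts were 17 and 5. Without 2C replicate 1, 174 were higher and 64 lower, and without MII replicate 1 they were 159 and 16. Calls that passed in all 4 of these fits were the rises of STIP1, CORO6, GNL2, CALML6 and TTLL9 and the fall of CCDC64B. STIP1, CORO6, GNL2 and CCDC64B also passed with edgeR and DESeq2 on the recovered reads. With the 6 samples of MII, 2C and 4C fitted alone, 8 loci were higher and 5 lower, and all 49 calls named by rule were lost, these included. All other calls named here were lost in at least 1 of the 4 fits. With the 4 samples fitted alone, limma called 0 loci (1192 at an unadjusted p under 0.05) and edgeR 0 (1046), against more calls over all 16 samples. There edgeR gave 41 higher (0.424%) and 3 lower (0.031%), 44 (0.455%) in all, and DESeq2 gave 260 (2.69%), 121 (1.25%) and 381 (3.94%).

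The direction of the differences varied with the level of the transcript. Loci were grouped by their mean over all 16 samples, which includes the 4 samples compared. A locus high in the oocyte can thus enter an upper class through that level. How much of the pattern comes from this grouping was not tested. Of the 208 loci with a mean of 1000 or more, both embryos lay below both oocytes at 113 (54.3%) and above them at 21 (10.1%), with a median log2 difference of -1.02. Of the 1099 loci between 100 and 1000 the shares were 29.9% below and 19.7% above. Among the 5253 loci between 10 and 100 they turned to 16.4% below and 25.5% above, and among the 3110 loci under 10 to 9.10% below and 26.8% above. Relative to the median of all loci, the most abundant class stood at -1.17, and at -0.94 with total read scaling. Not centred on that median, total read scaling gave -0.16 for this class and 0.65 for the class between 100 and 1000, whose median was -0.19 as deposited, so the level at which the direction turns rests on the scaling. In each embryo alone its median was below 0, at -0.75 in 2C replicate 1 and -1.14 in replicate 2.

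**Figure D2:**
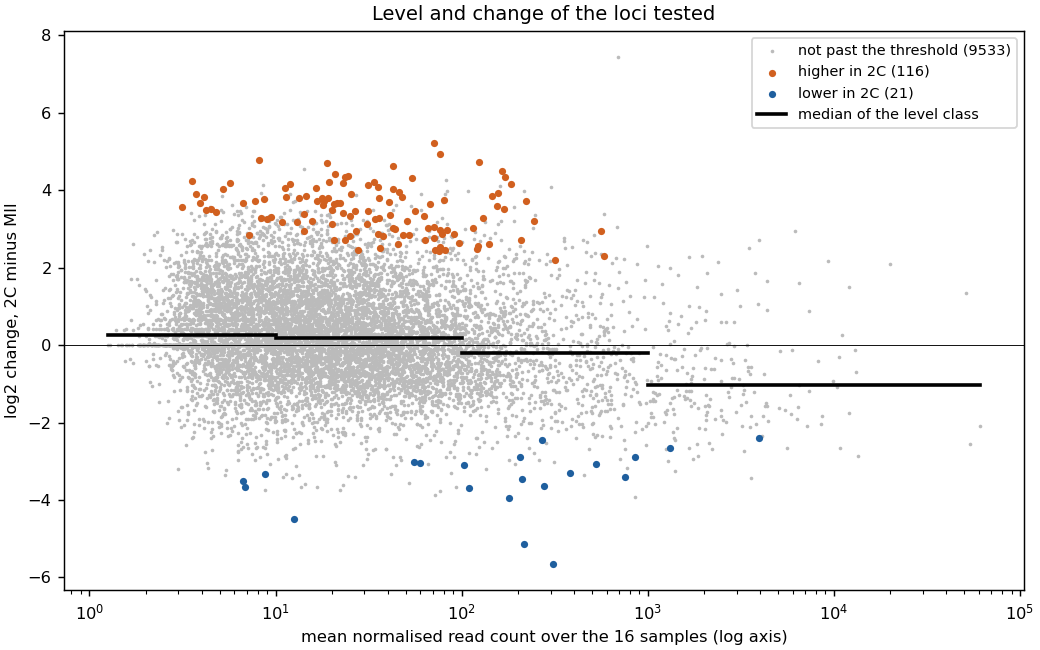
Log2 change from MII to 2C (vertical axis) against the mean normalised read count over the 16 samples (horizontal log axis), 1 point a locus, with the 116 higher and 21 lower loci coloured and black bars at the median of each level class. Rises lie mostly among loci under 100, falls extend to higher levels, and the median of the class from 1000 upwards is -1.02.

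ACCSL and ODC1 took the most reads in both oocytes and did not pass the test. ACCSL, related to the plant enzyme 1-aminocyclopropane-1-carboxylate synthase, took 11.4% and 16.5% of the reads in MII, 13.4% in 2C replicate 1 and 2.69% in replicate 2. Its level was 237058 and 399561 in MII and 159880 and 33227 in 2C, a log2 difference of -2.08 ± 1.01 (SE; adjusted p = 0.319, limma). ODC1, the first enzyme of polyamine synthesis, stood at 144197 and 232269 in MII and at 87071 and 11325 in 2C (adjusted p = 0.184). ODC1 took 6.92% and 9.57% of the reads in MII and 7.32% and 0.918% in 2C. On the deposited scaling the embryos lay below the oocytes for both genes, whereas by share of reads replicate 1 lay between the oocytes and replicate 2 below them.

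WEE2, the oocyte kinase that holds CDK1 inactive, stood at 66244 and 107165 in MII and at 22924 and 5946 in 2C, with a log2 difference of -2.85 ± 0.73 (adjusted p = 0.061). CKS1B, a small partner of the cyclin-dependent kinases, stood at 39548 and 53536 in MII and at 3730 and 14466 in 2C (adjusted p = 0.079). PSMD9, an assembly chaperone of the proteasome, stood at 6916 and 9911 in MII and at 1940 and 1443 in 2C (adjusted p = 0.076). In these genes the groups did not overlap, and the adjusted p-values lay near the threshold of 0.05. Of the embryos, replicate 2 was the lower one for WEE2 and PSMD9 and replicate 1 for CKS1B.

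Of the 21 loci that fell, 17 had a gene name, and in all 21 both embryos lay below both oocytes. Their log2 changes ran from -5.66 to -2.39. Their median level was 470 and 395 in the MII samples and 37.98 and 26.6 in the 2C samples, so most were measured well above the floor in the oocyte. They did not share one role, and only the histone methyltransferases among the lists of genes held members that fell.

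CCDC64B, a coiled-coil protein of the family that links cargo to dynein, gave the clearest fall. It stood at 637 and 757 in MII and at 13.5 and 25.9 in 2C, 35.4-fold higher in the oocyte, with a log2 change of -5.14 ± 0.55 (SE; adjusted p = 0.000467, limma). It was the only fall that passed in every fit leaving out 1 sample. The unannotated locus CUFF.45376.1 had the largest log2 change of the falls, -5.66 ± 1.11, with 241 and 329 in MII, 30.1 in 2C replicate 1 and 0 in replicate 2.

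Regulators of transcription and chromatin were among the falls. SETDB1, a histone H3 lysine methyltransferase that lays down repressive marks, stood at 2966 and 3382 in MII and at 558 and 159 in 2C, 8.85-fold higher in the oocyte (log2 change -3.40 ± 0.65, adjusted p = 0.024). PRDM2, a zinc finger protein with a methyltransferase domain, stood at 4742 and 4048 in MII and at 493 and 988 in 2C (log2 change -2.65 ± 0.55, adjusted p = 0.030). The oocytes differed little from each other for both genes, and the embryos ranked in opposite order. CTBP1, a transcriptional corepressor, stood at 470 and 314 in MII and at 46.7 and 19.3 in 2C, 11.9-fold higher in the oocyte. GLIS1, a zinc finger factor that promotes reprogramming of somatic cells, stood at 380 and 327 in MII and at 18.2 and 66.8 in 2C, 8.32-fold higher in the oocyte. The falls of CTBP1 (log2 change -3.63 ± 0.60) and GLIS1 (-3.29 ± 0.57) had adjusted p-values of 0.015 and 0.017.

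AGPAT6, SLC25A26, RETSAT and GPCPD1 also fell. AGPAT6, an acyltransferase of glycerolipid synthesis, stood at 1291 and 539 in MII and at 131 and 21.5 in 2C, 11.97-fold higher in the oocyte. SLC25A26, which carries S-adenosylmethionine into mitochondria, stood at 827 and 966 in MII and at 127 and 50.7 in 2C, 10.1-fold higher. RETSAT, a retinol saturase, stood at 1221 and 1694 in MII and at 423 and 88.7 in 2C, 5.69-fold higher. GPCPD1, a phosphodiesterase of glycerophosphocholine, stood at 421 and 395 in MII and at 92.6 and 63.9 in 2C, 5.21-fold higher. Their adjusted p-values lay between 0.019 for SLC25A26 and 0.048 for RETSAT, and replicate 2 was the lower embryo in each of them.

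Among the other falls, ANKS1B, a scaffold protein known from synapses, stood at 561 and 870.1 in MII and at 37.98 and 74.4 in 2C. SEMA4D, a semaphorin, stood at 922 and 1251 in MII and at 279 and 73.7 in 2C. VRK2, a kinase, stood at 702 and 1387 in MII and at 155 and 211 in 2C. FAM20B, a kinase of proteoglycan assembly, stood at 108 and 36.2 in MII and at 5.54 and 8.03 in 2C. These genes were 12.7-fold, 6.16-fold, 5.71-fold and 10.6-fold higher in the oocyte, with log2 changes of -3.69 ± 0.68, -2.89 ± 0.65, -2.44 ± 0.55 and -3.05 ± 0.68.

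A few falls rested on low levels. BLVRA, a biliverdin reductase, had 27 and 47 reads in MII and 2 and 0 in 2C. ARMCX3, a protein of the mitochondrial outer membrane, had 21 and 9 reads in MII and 0 and 1 in 2C. ABCA4, a retinoid transporter, had 16 and 66 reads in MII and 4 and 3 in 2C, and SPP1, the secreted protein osteopontin, had 28 and 85 in MII and 3 and 17 in 2C. Adjusted p-values of these genes were 0.027, 0.048, 0.048 and 0.049, in that order. The remaining falls were LOC617476, with 1041 and 1493 in MII and 283 and 75.9 in 2C, and the unannotated loci CUFF.36073.1 and CUFF.13903.1.

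**Figure D3:**
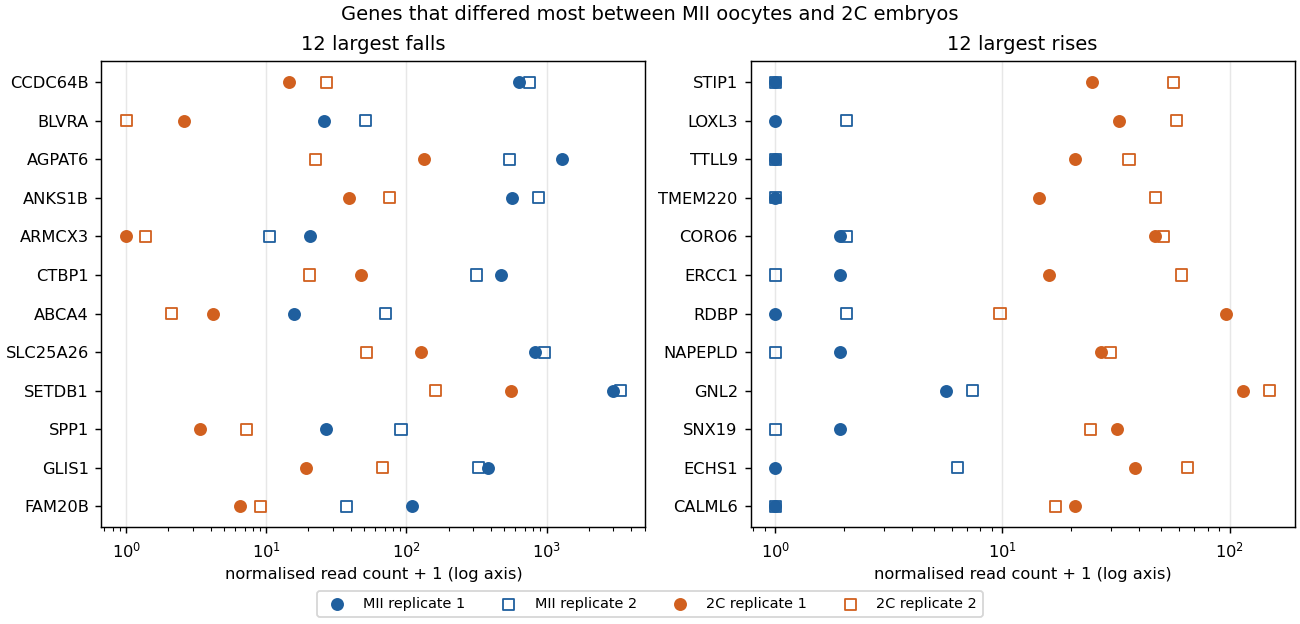
Normalised read count + 1 (log axis) in each MII sample (blue) and each 2C sample (orange) for the 12 named genes with the largest falls and the 12 with the largest rises, filled circles for replicate 1 and open squares for replicate 2. That the groups do not overlap was a condition for choosing the 24 genes. Most of the rises start at or near 0 in both oocytes.

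Of the 116 loci that rose, 107 had a gene name, and both embryos lay above both oocytes at all 116. Log2 changes ran from 2.19 to 5.22. The rises started low: 37 loci had no read in either oocyte, and 81 had 3 reads or fewer over both. Their median level was 0.923 and 0 in the MII samples and 16.6 and 22.6 in the 2C samples. The level was higher in 2C replicate 2 than in replicate 1 at 81 of the 116. A fitted change from so few reads depends on the pseudocount, and with no read in MII the fold below is a lower bound against the floor of 3 reads per library.

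STIP1, the cochaperone that joins HSP70 to HSP90, had no read in either oocyte and 30 and 152 reads in the embryos. Its level in 2C was 23.7 and 55.5, at least 13.3-fold higher than the floor in MII (log2 change 5.22 ± 0.55, adjusted p = 0.000467, limma). TTLL9, of the tubulin tyrosine ligase-like family, had no read in MII and stood at 19.8 and 35.0 in 2C, at least 9.20-fold higher. CALML6, a calmodulin-like protein, had no read in MII and stood at 19.8 and 16.1 in 2C, at least 6.01-fold higher. TMEM220, a membrane protein, had no read in MII and stood at 13.5 and 46.3 in 2C, at least 10-fold higher. In STIP1 and TMEM220 replicate 2 was well above replicate 1, and in CALML6 the embryos were close.

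GNL2, a nucleolar GTPase of large ribosomal subunit assembly, rose from a measured level. It stood at 4.62 and 6.38 in MII and at 114 and 149 in 2C, 23.9-fold higher in the embryo (log2 change 4.35 ± 0.63, adjusted p = 0.007). ECHS1, a mitochondrial enzyme of fatty acid oxidation, had 0 and 5 reads in MII and stood at 37.2 and 64.2 in 2C (log2 change 4.31 ± 0.75). CORO6, an actin-binding coronin, had 1 read in each oocyte and stood at 45.9 and 50.4 in 2C (log2 change 4.62 ± 0.63). ERCC1, a subunit of a DNA repair nuclease, had 1 and 0 reads in MII and stood at 15.03 and 60.6 in 2C.

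RDBP, a subunit of the negative elongation factor of RNA polymerase II, had 0 and 1 reads in MII and stood at 95.0 and 8.76 in 2C. Here replicate 1 was the higher embryo, by a wide margin. LOXL3, a lysyl oxidase, had 0 and 1 reads in MII and stood at 31.7 and 57.3 in 2C. NAPEPLD, a phospholipase that makes lipid amides, had 1 and 0 reads in MII and stood at 26.1 and 28.8. SNX19, a sorting nexin, had 1 and 0 reads in MII and stood at 30.9 and 23.4. Log2 changes of RDBP, LOXL3, NAPEPLD and SNX19 were 4.41 ± 0.91, 4.92 ± 0.90, 4.36 ± 0.86 and 4.33 ± 0.74, with adjusted p-values of 0.029, 0.024, 0.024 and 0.017. The largest rises without a gene name were CUFF.48456.1 (log2 change 4.73 ± 0.70), LOC100138973 (4.04 ± 0.61) and CUFF.4676.1 (3.84 ± 0.86).

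Only 12 of the 116 rises had at least 10 reads in each oocyte, and they were picked out after their values were seen. BRPF3, a scaffold of histone acetyltransferase complexes, stood at 48.9 and 47.9 in MII and at 275 and 306 in 2C, 6.005-fold higher in the embryo. NANOS1, an RNA-binding repressor of translation, stood at 77.5 and 78.7 in MII and at 419 and 365 in 2C, 5.02-fold higher. Both genes had replicates close together at each stage.

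WSB2, a substrate receptor of ubiquitin ligases, stood at 50.8 and 22.3 in MII and at 197 and 257 in 2C, 6.21-fold higher in the embryo. ARF1, a GTPase of Golgi transport, stood at 20.3 and 48.9 in MII and at 169.3 and 191 in 2C, 5.20-fold higher. TOMM70A, a receptor for protein import into mitochondria, stood at 22.2 and 18.1 in MII and at 73.6 and 175 in 2C, 6.17-fold higher. SMURF2, a ubiquitin ligase of TGF-beta signalling, stood at 10.2 and 11.7 in MII and at 58.6 and 71.9 in 2C, 5.97-fold higher. The others were CNOT1, C2H1orf135, DNTTIP2, LOC614614, LOC100849309 and LOC100849584, and over the 12 the fold ran from 4.84 for LOC100849309 to 9.85 for LOC614614.

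The largest log2 difference of all loci did not pass the test. SUN5, a nuclear envelope protein known from spermatids, stood at 12.9 and 6.38 in MII, at 631 in 2C replicate 1 and at 4959 in replicate 2 (log2 difference 7.45 ± 2.04, adjusted p = 0.077, limma). In 4C it stood at 3.69 in replicate 1 and 5491 in replicate 2, and from 8C on it was at 0 in all but 1 sample. The 4C replicates thus differed more at this locus than the MII and 2C groups did.

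Genes of protein synthesis were described as lists, with the median log2 difference of all loci, 0.15, and the shares of all loci called, 1.2% higher and 0.217% lower, as the background. Of 80 cytosolic ribosomal protein genes tested, 5 rose, among them RPL17, RPL24, FAU and RPL19, and 0 fell, with a median of 0.60. RPL17, a protein of the large subunit, had 2 and 0 reads in MII and stood at 32.4 and 11.3 in 2C. FAU, which encodes a small subunit protein fused to a ubiquitin-like domain, had 0 and 1 reads in MII and stood at 7.12 and 12.4 in 2C. RPL24, of the large subunit, rose by 3.02 ± 0.58 on the log2 scale. Ribosomal protein genes have many near-identical copies, and how reads that map to several places were counted is not given in the sources used here, so their levels are uncertain.

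The embryos differed most over this list. The median log2 difference from the MII mean was 1.19 in 2C replicate 1 and -0.13 in replicate 2. Replicate 1 lay above both oocytes at 52 of the 80 genes and below both at 4, while replicate 2 lay above at 28 and below at 25. Over all loci the shares above both oocytes were 36.8% for replicate 1 and 42.0% for replicate 2, and the shares below both were 26.2% and 28.2%. RPS19 of the small subunit had 0 and 1 reads in MII and stood at 32.4 in replicate 1 and 0.365 in replicate 2. RPL34 of the large subunit had no read in MII and stood at 19.8 and 0.365. These 2 genes were chosen after their values were seen.

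Genes of the mitochondrial ribosome and the respiratory chain had medians above that of all loci. Of 67 mitochondrial ribosomal protein genes 0 passed the test, with a median of 0.64 (0.33 in replicate 1 and 0.79 in replicate 2). At an unadjusted p under 0.05, 9 of them were higher and 1 lower, where 11.5% and 4.88% of all loci were. Of 70 respiratory chain subunits 4 rose and 0 fell, with a median of 0.50 (0.61 and 0.59), where 1.2% of all loci rose. COX5B, a subunit of cytochrome c oxidase, and ATP5G1, of the ATP synthase, had no read in MII and stood at 9.50 and 14.2 and at 7.12 and 11.3 in 2C. SDHB, of succinate dehydrogenase, had 2 and 0 reads in MII and stood at 15.03 and 13.9. The rises of these 3 genes rest on 2 reads or fewer over both oocytes.

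Chaperones had the highest median of the lists with at least 10 genes tested. Of 34 heat shock and chaperonin genes 2 rose (STIP1 and CCT4) and 0 fell, where 1.2% of all loci rose and 0.217% fell, and the median was 0.86 (0.76 in replicate 1 and 1.10 in replicate 2). At 15 of the 34 (44.1%) both embryos lay above both oocytes, against 25% of all loci. Of the 34 genes, 33 had reads in the MII or 2C samples. CCT4, a subunit of the cytosolic chaperonin, had 1 read in each oocyte and stood at 7.91 and 22.6 in 2C. HSPA1A, an inducible heat shock protein and a marker of early embryonic transcription in mammals, stood at 0.923 and 2.13 in MII and at 10.3 and 12.8 in 2C (adjusted p = 0.200). HSP90AB1 and HSP90B1 stood lower in both embryos than in both oocytes on the deposited scaling, though not by share of reads, with log2 differences of -1.09 and -1.17 (adjusted p = 0.34 and 0.31).

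Among 59 translation factors 2 rose, EIF3D and EEF1D, and 0 fell, with a median of 0.40, where 1.2% of all loci rose. EIF3D, a subunit of the initiation factor that recruits the small ribosomal subunit, had no read in MII and stood at 5.54 and 6.93 in 2C. EEF1D, an exchange factor of elongation, had 1 and 0 reads in MII and stood at 7.12 and 6.20. Among 100 splicing factors 2 rose, LSM2 and LSM3, with a median of 0.14. LSM2, of the ring that binds U6 RNA and decapped messages, had no read in MII and stood at 6.33 and 20.4 in 2C. Both members of the ring rose by 3.65 ± 0.76 (LSM2) and 2.60 ± 0.53 (LSM3) on the log2 scale. Of 41 proteasome subunits 0 passed in either direction, with medians of -0.28 in replicate 1 and 0.62 in replicate 2.

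**Figure D4:**
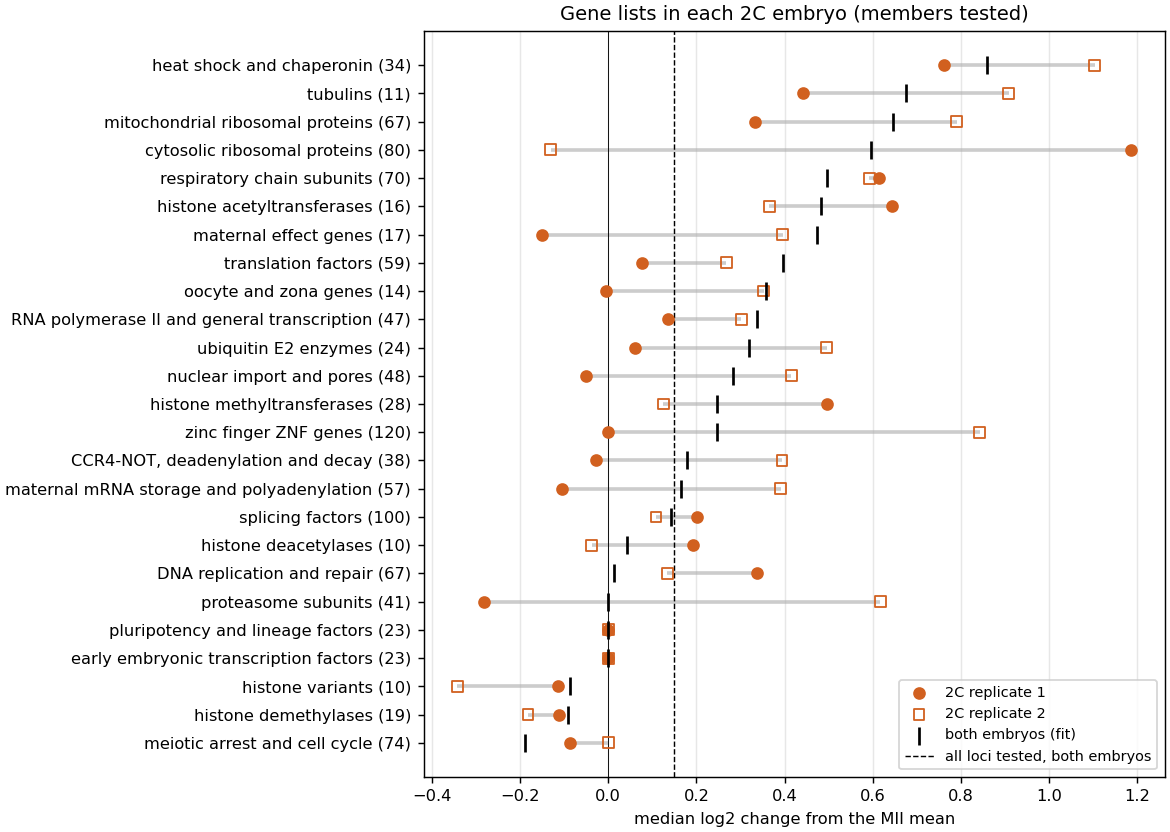
Median log2 change from the MII mean in 2C replicate 1 (filled circles), in 2C replicate 2 (open squares) and in the fit of both (black ticks) for each list with at least 10 genes tested, the number tested in brackets and the dashed line at the median of all loci, 0.15. The embryos stand farthest apart for cytosolic ribosomal proteins, at 1.19 and -0.13, and close together for respiratory chain subunits, at 0.61 and 0.59.

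The share of genes called among those that remove or store maternal messages was near that of all loci, 1.2% higher and 0.217% lower. Of 38 genes of CCR4-NOT, deadenylation and decay, 1 rose and 0 fell, with a median of 0.18. CNOT1, the scaffold of the deadenylase complex, stood at 12 and 18.1 in MII and at 124 and 75.5 in 2C, 6.64-fold higher in the embryo (log2 change 2.64 ± 0.52, adjusted p = 0.024). BTG4, the adaptor that recruits CCR4-NOT to oocyte messages, stood at 904 and 1428 in MII and at 798 and 1181 in 2C. The catalytic subunits CNOT6L and CNOT7 stood at 578 and 1127 and at 611 and 1308 in MII, and at 699 and 470 and at 606 and 372 in 2C. None of BTG4, CNOT6L and CNOT7 passed the test, with adjusted p-values of 0.994, 0.827 and 0.454.

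Of 57 genes of maternal mRNA storage and polyadenylation, NANOS1 rose and 0 fell, with a median of 0.16. No gene of the oocyte and zona list (14 tested) or of the maternal effect list (17 tested) passed the test, and at an unadjusted p under 0.05 the counts were 2 higher and 0 lower, and 2 higher and 1 lower, where the shares of all loci were 11.5% and 4.88%. ZP4 stood at 48.9 and 86.2 in MII and at 339 and 265 in 2C (log2 difference 2.19 ± 1.02, adjusted p = 0.303). NLRP5, a core protein of the subcortical maternal complex, stood at 14.8 and 10.6 in MII and at 36.4 and 53.6 in 2C, and OOEP of the same complex at 24.0 and 51.1 and at 25.3 and 6.57. DPPA3, which protects maternal DNA methylation, stood at 643 and 1049 in MII and at 669 and 489 in 2C. NLRP8 stood at 5642 and 2190 in MII and at 10971 and 11285 in 2C (log2 difference 1.66 ± 1.15, adjusted p = 0.515). ZP4, NLRP5 and NLRP8 were higher in both embryos, and for OOEP and DPPA3 the groups overlapped.

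Genes of meiotic arrest and the cell cycle had the lowest median of the lists with at least 10 genes tested, -0.19 over 74 genes, with 0 past the threshold and 7 higher and 4 lower at an unadjusted p under 0.05, where 11.5% and 4.88% of all loci were. PLK1, the polo-like kinase of mitotic entry, stood at 2.77 and 2.13 in MII and at 32.4 and 28.1 in 2C (log2 difference 3.18 ± 1.01, adjusted p = 0.113). CCNB2, a B-type cyclin, stood at 36.9 and 52.1 in MII and at 58.6 and 62.0 in 2C (adjusted p = 0.865). MOS, the kinase that keeps the metaphase arrest, stood at 19.4 and 41.5 in MII and at 8.70 and 53.3 in 2C (adjusted p = 0.927). PLK1 thus lay apart between the stages, but from 3 and 2 reads in MII, near the floor. WEE2 and CKS1B lay apart in the other direction from high levels, and the groups overlapped for MOS. Of 67 genes of DNA replication and repair 0 passed, with a median of 0.01, and the list does not hold ERCC1, which rose. RFC5, a subunit of the clamp loader, stood at 1089 and 596 in MII and at 3778 and 4112 in 2C (adjusted p = 0.134), and TUBA1B, an alpha-tubulin with close paralogs, rose from 0 and 1 reads to levels of 11.1 and 20.1.

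Histone and DNA modifiers were taken from the study's lists, in copies with fewer methyltransferases and demethylases than the study counts. Of 48 methyltransferases listed 41 were found in the data, and of 28 demethylases 23. Of 28 histone methyltransferases 2 fell, SETDB1 and PRDM2, and 0 rose, where 0.217% of all loci fell and 1.2% rose. None of 10 histone variants, 19 demethylases, 16 acetyltransferases, 10 deacetylases and 5 DNA modifiers passed the threshold in limma. At an unadjusted p under 0.05 the counts higher and lower were 1 and 0, 0 and 2, 4 and 0, 3 and 0, and 1 and 0, where 11.5% of all loci were higher and 4.88% lower. H1FOO had a log2 difference of -1.82 ± 1.15 (adjusted p = 0.467) with both embryos below both oocytes. H3F3B, one of the genes for histone H3.3, stood at 427 and 277 in MII and at 294 and 161 in 2C, and H2AFX, the variant phosphorylated at DNA breaks, at 60.9 and 55.3 and at 68.0 and 35.8.

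Among acetyltransferases, CREBBP, the coactivator CBP, stood at 52.6 and 12.8 in MII and at 95.7 and 165 in 2C (log2 difference 2.22 ± 0.67, adjusted p = 0.096). NAA60 and HAT1, which acetylate histone H4, stood at 0 and 1.06 and at 0 and 2.13 in MII, and at 11.9 and 8.03 and at 8.70 and 13.9 in 2C (adjusted p = 0.09 and 0.07). HDAC1 stood at 103 and 238 in MII and at 141 and 45.3 in 2C, and HDAC2 at 5.54 and 5.32 and at 16.6 and 39.4 (adjusted p = 0.44 and 0.09). Of these deacetylases HDAC1 overlapped between the stages and HDAC2 did not. TET3, the oocyte dioxygenase that oxidizes methylated cytosine, stood at 267 and 324 in MII and at 185 and 87.9 in 2C (adjusted p = 0.479). DNMT1, the maintenance methyltransferase, stood at 74.8 and 115 in MII and at 78.3 and 52.9 in 2C, and UHRF1, its partner, at 1008 and 828 and at 681 and 498. TET3 and UHRF1 were lower in both embryos than in both oocytes on the deposited scaling and overlapped by share of reads, and DNMT1 overlapped on the deposited scaling.

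Of 47 genes of RNA polymerase II and general transcription, TAF11 and RDBP rose and 0 fell, where 1.2% of all loci rose and 0.217% fell. TAF11, a subunit of TFIID, had no read in MII and stood at 14.2 and 12.8 in 2C, at least 4.53-fold higher (log2 change 3.86 ± 0.63, adjusted p = 0.014). XPO7, an exportin, was the only one of 48 genes of nuclear import and pores to pass, with 4 and 0 reads in MII and levels of 19.8 and 16.4 in 2C. Of the lists of early embryonic transcription and of pluripotency and lineage factors, with 23 genes tested each, 0 passed. Both lists hold tested genes with no read in MII or 2C, whose difference is 0 by construction, so their medians are not read. POU5F1, the pluripotency factor OCT4, stood at 505 and 297 in MII and at 294 and 308 in 2C. EIF1AX, an initiation factor used as a marker of early bovine transcription, stood at 247 and 295 in MII and at 173 and 171 in 2C. KLF17 had at most 1 read in each MII and 2C sample, and MYC had none. Of 120 zinc finger ZNF genes 0 passed, and their median was 0 in replicate 1 and 0.84 in replicate 2. A gene with no read in the oocytes and replicate 1 also takes the value 0. Of the 293 ZNF genes found, 152 had reads in replicate 1 and 187 in replicate 2, the deeper library. The gap between the embryos is therefore not read.

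Each embryo was also compared with the oocytes alone, in fits that assume the lone embryo varies like the samples of the other stages. 2C replicate 2 alone gave 174 loci higher (1.8%) and 64 lower (0.662%), 238 (2.46%) in all. Replicate 1 alone gave 17 higher (0.176%) and 5 lower (0.0517%), 22 (0.228%) in all. The genes given here were chosen after their values were seen. F3, the tissue factor of coagulation, stood at 103 and 183 in MII, 61.7 in 2C replicate 1 and 0.730 in replicate 2, and was at 0 in both 4C samples. ITM2B, a membrane protein, stood at 25.8 and 76.6 in MII, 19.0 in replicate 1 and 0 in replicate 2, with 0 and 10.6 in 4C. For F3 replicate 2 lay nearer to both 4C samples than replicate 1 did, and for ITM2B nearer to 1 of them.

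Rises in the comparison of replicate 2 alone included TMEM140, a membrane protein, at 12.9 and 0 in MII, 15.03 in replicate 1 and 191 in replicate 2, with 198 and 173 in 4C. MS4A1, the B cell antigen CD20, had no read in MII and stood at 5.54 and 50.4 in 2C. BMS1, a GTPase of small ribosomal subunit assembly, had no read in MII and stood at 5.54 and 46.3. Replicate 1 alone showed SPIN1, a reader of methylated histone H3, at 6.46 and 0 in MII and at 169.3 in replicate 1 against 9.85 in replicate 2. SLC7A3, a cationic amino acid transporter, stood at 7.38 and 4.25 in MII, 253 in replicate 1 and 9.12 in replicate 2, with 53.5 and 53.6 in 4C. ITGA2, an integrin, stood at 102 and 25.5 in MII, 0 in replicate 1 and 24.5 in replicate 2. For SLC7A3 the 4C samples lay between the embryos.

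Later stages were read as a description of the loci that had changed, with no test, since comparisons with later stages share the 2C samples. The median level of the 116 rises was 0.923 in MII, 22.3 in 2C and 21.9 in 4C, and 33.5 in 8C, 26.0 in 16C, 43.5 in EM, 42.4 in CM and 45.2 in BL. At 86 of them all 10 samples from 8C on had at least 3 reads. STIP1 stood at means of 72.6 in 4C, 133 in 8C and 139 in BL, and ERCC1 at 63.9, 328 and 98.9. TAF11 stood at means of 23.3 in 4C and 294 in 8C.

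Another 12 of the rises had a mean over the 10 samples from 8C on that was under the floor of 3 reads. CALML6 stood at a mean of 10.4 in 4C and at 0 in each stage from 8C to BL. TTLL9 stood at 36.8 in 4C and at 0 from 8C to BL except for 0.938 in CM. MS4A1 stood at 17.5 in 4C and at 0 from 8C on. The named others were CLU, DGKI, GFPT2, ITSN2, NLRP1, RYR1 and SLC10A4. CALML6, TTLL9 and MS4A1 had reads in every 2C and 4C sample and none in MII.

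The 21 falls had a median level of 408 in MII, 42.5 in 2C, 42.6 in 4C and 106 in 8C, with 181 in BL. At 16 of them all 10 samples from 8C on again had at least 3 reads. CTBP1 stood at a mean of 7.81 in 4C, 106 in 8C and 695 in BL, and GLIS1 at 42.6, 614 and 251. GPCPD1 stood at 408 in MII, 144 in 4C and 7704 in 8C. CCDC64B stood at 8.05 in 4C and 267 in 8C. ANKS1B, ABCA4 and SPP1 had means under the floor from 8C on, with ANKS1B at 105 in 4C and 0 in 8C. CTBP1, GLIS1, GPCPD1 and CCDC64B were thus higher again in both 8C samples than in both 2C samples.

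**Figure D5:**
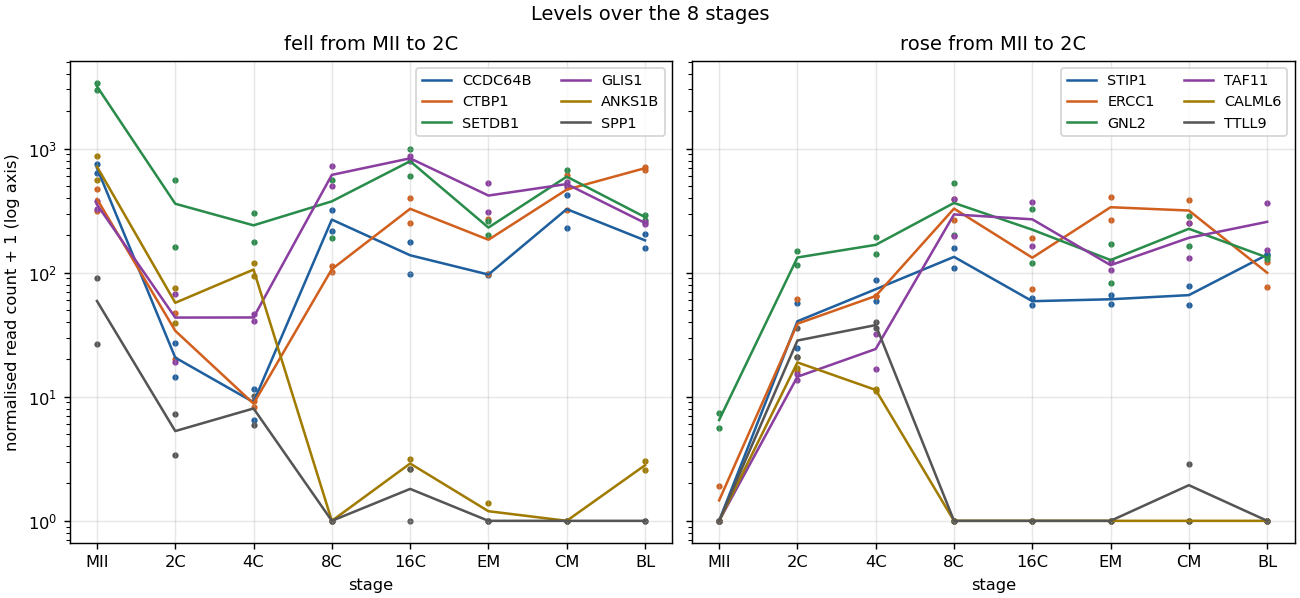
Normalised read count + 1 (log axis) over the 8 stages for 6 genes that fell and 6 that rose between MII and 2C, chosen after their values were seen, with dots for the samples and lines through the stage means. CTBP1, GLIS1 and CCDC64B stand above their 2C levels in 8C, ANKS1B and SPP1 do not, and CALML6 and TTLL9 are seen in 2C and 4C and at or near 0 elsewhere.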

How the data were processed

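RNA-Seq of 16 single bovine oocytes and embryos was used, with the comparison made between 2 MII and 2 2C samples. The authors trimmed and mapped reads and counted them per locus. The submitters' processing notes name cutadapt, FastQC, TopHat, Cufflinks and HTSeq, and the genome build is not given in the sources used here. The deposited values are a signal, counts divided by a size factor, and dividing each column by its step gave whole reads at 100% of values above 0 (tolerance 0.01) (1502413 to 3379426 in the 4 samples). Samples were grouped by GEO's stage labels.

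Loci were kept by edgeR's filterByExpr, and limma 3.58.1 (R 4.3.3, empirical Bayes with a trend) was run on log2(value + 1) over 8 stages with Benjamini-Hochberg adjustment at 0.05. Log2 changes are on that scale and understate those of low genes, and folds are ratios of mean normalised read counts. edgeR 4.0.16 and DESeq2 1.42.0 on recovered reads, other scalings, pseudocounts of 0.5 and 5, other filters, fewer samples and leaving out each sample were alternatives. The fits were tested on simulated data. Gene names come from the deposited table, with synonyms from a RefSeq gene table of ARS-UCD2.0, used for names only. Summaries used Python 3.11.15, pandas 2.3.3 and scipy 1.17.1.

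Named genes are the 12 largest named rises and falls and the 3 largest without a name, among calls whose groups did not overlap. Added to these are members of 30 gene lists past the threshold (up to 4 per direction) or else the 3 highest. Textbook genes of this transition were also named, of which CCNB1 was not found by name. Others were named after their values were seen, including the remaining falls and the rises with 10 or more reads in each oocyte. Members, lists and tests were chosen with earlier results of these data known. A planned description of sequence features was not made. A few genes that the rule would name are not reported here.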

Additional observations from a re-analysis of the deposited data

How the results depend on the processing

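None of the 49 calls named by rule reversed under an alternative that gave them a value. The alternatives reuse the samples from which the calls were chosen, so the direction was largely fixed in advance. All 49 lost their call with the 4 samples, or the 6 MII, 2C and 4C samples, fitted alone. The number of loci higher in 2C, 116 as reported, became 541 with total read scaling, 180 with a pseudocount of 0.5, 217 with a filter on the 4 samples, 8 with the 6 MII, 2C and 4C samples, 41 with edgeR and 260 with DESeq2. The number lower, 21 as reported, became 10 with total read scaling, 55 with a pseudocount of 5, 46 with a filter on the 4 samples, 5 with the 6 samples, 3 with edgeR and 121 with DESeq2. With the 4 samples fitted alone, limma gave 0 higher and 0 lower (1192 at an unadjusted p under 0.05). After the data had been seen, 2 further fits of the 4 samples were added, limma with its own filter and edgeR, and gave 0 higher and 0 lower (988 and 1046 at an unadjusted p under 0.05). Leaving out each sample in turn gave 14 to 174 higher and 2 to 64 lower. Non-overlap with CPM was 4198 loci above and 473 below, in place of 2413 and 1588. The cause of these differences was not tested.

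The deviations of MII replicate 1 and 2C replicate 1 from their stage means correlated at r = -0.26 across loci. With 2 samples a stage this compares only the replicate difference of each stage. It therefore cannot decide whether samples with the same number share a donor or a run. With the replicate number as a block, 94 loci were higher and 15 lower, and with the numbers crossed, added after the data had been seen, 104 and 18. Of 49 genes named by rule that passed, 42 kept their call with the block, 29 with a pseudocount of 5, 23 with edgeR, 41 of 43 with DESeq2, 9 without MII replicate 2 and 10 without 2C replicate 2. With 3 reads as the floor in single libraries, rises from few reads set no firm fold.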
